A study of Mus musculus with 15 samples.

Results

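The clonotypes described here were T-cell receptor beta chain (TCRβ) rearrangements read in exactly 1 library of CD8 T cells that bound an IGRP tetramer (TET) and in 1 or more libraries of the tetramer-negative CD8+CD44+ T cells (CD8). They were chosen by their presence in the deposited tables, where a clonotype is a combination of V family, J cluster and nucleotide sequence of the CDR3. Of 4764 clonotypes that were confined to a single TET library, 581 (12.2%) were also read in CD8 and are called CD8-found clonotypes below. The other 4183 were read in no CD8 library, are called TET-only clonotypes, and served as the comparison. In all, the series held 57052 distinct clonotypes, of which 5131 were in TET and 52593 in CD8 libraries.

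The cells came from 125-day-old mice of the non-obese diabetic (NOD) strain, which spontaneously becomes diabetic through autoimmunity. Wild type NOD (WT) mice were compared with Ifngr-1-mutant NOD mice, which carry a mutation in a chain of the interferon-γ receptor. For each mouse, spleen and non-draining lymph nodes were pooled. The cells were stained with an H-2Kd tetramer of the IGRP206–214 peptide at 8 nM and passed over a magnetic column. The bound cells gave 3 WT and 4 mutant TET libraries and the flow-through CD8+CD44+ cells gave 4 WT and 4 mutant CD8 libraries. The TET library of WT mouse 4 was not analysed here. TET and CD8 libraries with the same number and strain were taken as 1 mouse, because the design text counts 4 mice a strain for both fractions, although the same text says that no mouse gave duplicate samples. The data hold only TCRβ sequences, so the labelled cell types could not be checked against marker genes.

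As background, a TCRβ chain is assembled in each developing T cell from a V, a D and a J segment. Bases are trimmed and added without a template at the joins, and the CDR3 that spans them makes much of the contact with the peptide. Rearrangements with few added bases arise often and recur in many animals. IGRP, a glucose-6-phosphatase-related protein of pancreatic beta cells, is a main target of CD8 T cells in NOD mice, and the TRBV13 family includes the beta chain of a widely studied IGRP-specific clone.

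The sequences below are the CD8-found clonotypes with the highest count in each TET library. They show that the largest of them in all 7 libraries used TRBV13. Capitals mark the bases between the V and the J alignment of the table, which include any D bases.

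WT TET 1: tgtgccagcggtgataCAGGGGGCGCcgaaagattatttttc
WT TET 2: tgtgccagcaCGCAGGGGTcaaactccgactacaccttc
WT TET 3: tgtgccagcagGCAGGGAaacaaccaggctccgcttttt
mutant TET 1: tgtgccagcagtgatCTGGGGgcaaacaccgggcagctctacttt
mutant TET 2: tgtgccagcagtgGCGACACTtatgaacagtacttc
mutant TET 3: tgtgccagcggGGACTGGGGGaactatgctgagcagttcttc
mutant TET 4: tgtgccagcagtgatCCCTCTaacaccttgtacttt

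These 7 clonotypes had 100, 57 and 35 counts in WT TET 1 to 3 and 276, 146, 86 and 1270 counts in mutant TET 1 to 4. Their counts in CD8 were lower, but they were chosen for a high TET count, and counts are not scaled to library totals. The clonotype of mutant TET 4, with 2.11% of its library, had a count of 1 in WT CD8 2 and was read in no other CD8 library. That of mutant TET 1 had a count of 9 in mutant CD8 1, and that of WT TET 3 a count of 8 in WT CD8 3, both in the library of the same mouse. The clonotype of mutant TET 3 had a count of 3 in that mouse's own CD8 library and 4 in WT CD8 4. The other 3 were read only in another mouse: WT TET 1 in mutant CD8 2 (count 7), WT TET 2 in mutant CD8 2 (count 4) and mutant TET 2 in WT CD8 4 (count 1).

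In all, 9 CD8-found clonotypes were read in 3 or more CD8 libraries, and 7 of them used TRBV13. Of all 581 CD8-found clonotypes, 327 (56.3%) used TRBV13, and 9 are too few to set apart from that share. The sequences below are the 1 in 5 CD8 libraries and, of the 8 tied at 3, the 4 with the highest summed CD8 count. They are shown because they recurred most, and they had 3, 2, 0, 4 and 0 inserted bases (bases given to no V, D or J segment) in the order printed. The 9 had 0 to 4, with a median of 0.

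mutant TET 4, in 5 CD8 libraries: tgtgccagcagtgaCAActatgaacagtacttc
WT TET 2, in 3 CD8 libraries: tgtgccagcggGGcctatgaacagtacttc
mutant TET 3, in 3 CD8 libraries: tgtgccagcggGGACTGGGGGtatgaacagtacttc
mutant TET 2, in 3 CD8 libraries: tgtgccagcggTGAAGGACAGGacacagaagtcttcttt
mutant TET 1, in 3 CD8 libraries: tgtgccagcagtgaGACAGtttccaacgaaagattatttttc

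The first of these, of 11 residues, had 16 counts in mutant TET 4 and 5, 8, 13, 5 and 8 counts in WT CD8 2, WT CD8 3, mutant CD8 1, mutant CD8 3 and mutant CD8 4. The second, of 10 residues, had 15 counts in WT TET 2 and 22, 4 and 6 counts in WT CD8 1, WT CD8 4 and mutant CD8 4. Both therefore crossed the strains. These counts are not scaled to the library totals, which differed. The clonotype of mutant TET 3 in this set and the largest CD8-found clonotype of that library had the same V family, the same capitals and a different J end.

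The largest TET-only clonotype of each TET library used TRBV13 as well. For contrast, the 2 of these with the highest counts are shown. They had 868 counts in WT TET 2, which is 5.80% of that library, and 544 counts in mutant TET 4, and a count of 0 in each of the 8 CD8 libraries. A clonotype at a count of 0 could still make up as much as 0.00913% to 0.0175% of a CD8 library (3 counts).

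WT TET 2, TET-only: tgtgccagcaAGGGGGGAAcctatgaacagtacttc
mutant TET 4, TET-only: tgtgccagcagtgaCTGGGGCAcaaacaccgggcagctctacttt

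Total counts ranged from 2536 to 14958 in WT TET, from 17294 to 60164 in mutant TET and from 17116 to 32856 in CD8 libraries. The number of clonotypes was 97 to 126 in WT TET, 393 to 2199 in mutant TET and 2040 to 9827 in CD8 libraries. Whether a count is a read or a molecule is not given in the tables, and the number of cells per library is not known. Intervals and limits therefore cover counting error only, and more cells and more RNA per cell cannot be told apart. WT TET 2 and mutant TET 4 stood apart in earlier results of these data by sharing many clonotypes, and WT CD8 1 held the fewest clonotypes of the CD8 libraries. The main values that change without them are given both ways.

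CD8-found clonotypes were a minority of the single-library clonotypes in each TET library. They numbered 10 of 87 (11.5%) in WT TET 1, 19 of 97 (19.6%) in WT TET 2 and 12 of 78 (15.4%) in WT TET 3. In mutant TET 1 to 4 they numbered 125 of 841 (14.9%), 223 of 1925 (11.6%), 157 of 1417 (11.1%) and 35 of 319 (10.97%). The strains overlapped in this percentage, and 505 of the 581 clonotypes came from mutant TET 1, 2 and 3. Just outside the rule, 77 of the 333 clonotypes read in exactly 2 TET libraries (23.1%) were in CD8, with a median count of 14 in the TET library where they were larger. At the other border of the rule, 155 of the 581 rested on a count of 1 in a single CD8 library (26.7%), and 41 of those also had a TET count of 1.

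Most of these clonotypes were read in very few CD8 libraries. Of the 581, 516 (88.8%) were in 1 CD8 library, 56 (9.64%) in 2, 8 in 3 and 1 in 5. The CD8 libraries were of the other strain only for 304 clonotypes (52.3%), of the own strain only for 236 (40.6%) and of both for 41. The clonotypes and the CD8 libraries they were in gave 657 pairings of a TET with a CD8 count, of which 75 were with the CD8 library of the same mouse, 222 with other mice of the strain and 360 with the other strain.

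The comparison of own and other mice asked whether a clonotype of a TET library was found more often in the same mouse's CD8 cells. The difference was smaller than the spread between mice. The own CD8 library held 1.15%, 3.09% and 2.56% of the single-library clonotypes of WT TET 1 to 3, which were 1, 3 and 2 clonotypes. The mean of the 7 other CD8 libraries was 1.81%, 2.80% and 2.01%. For mutant TET 1 to 4 the own library held 2.26%, 1.56%, 0.776% and 2.82%, against 2.04%, 1.65%, 1.67% and 1.43%. The own library was thus above the others in 4 of 7 mice and below them in 3. For WT TET 2 the mean of the others rested largely on mutant CD8 4, which held 13 of 97 (13.4%). No further CD8 library of another mouse held more than 2.06% of its clonotypes. Over the 7 mice the mean was 2.03 ± 0.882% in the own and 1.92 ± 0.443% in the other libraries (SD), a difference of 0.115 ± 0.766 percentage points (two-sided exact sign-flip permutation p = 0.703, adjusted 0.773 over 11 exact tests).

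By this percentage the own library was the highest of the 8 CD8 libraries for 0 of the 7 TET libraries, and ranked between 2 and 7. The rate per pair of clonotypes compared takes the number of clonotypes of each CD8 library into account. By it the own library was the highest for 1, WT TET 1, with 5.63 against a mean of 2.29 per 1000000 pairs. That rate rests on 1 shared clonotype. The own library was above the mean of the others in 5 of 7 mice by this rate. Among CD8-found clonotypes, 75 (12.9%) were in the own CD8 library and 506 (87.1%) in those of other mice alone. With 8 CD8 libraries, the others offer 7 places to the own library's 1. The size and sign of the difference depended on the setting. It was larger without clonotypes of TET count 1 (0.710 points), with the same number of clonotypes taken from each CD8 library (0.529, exact sign-flip permutation p = 0.0781, adjusted 0.286), against other mice of the strain alone (0.518) and with a CD8 count of at least 2 (0.396). It was below 0 when clonotypes were defined by amino acids (-0.179), without WT TET 2 and mutant TET 4 (-0.176) and without mutant mouse 1 (-0.0549). It did not pass the test in any alternative.

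**Figure D1:**
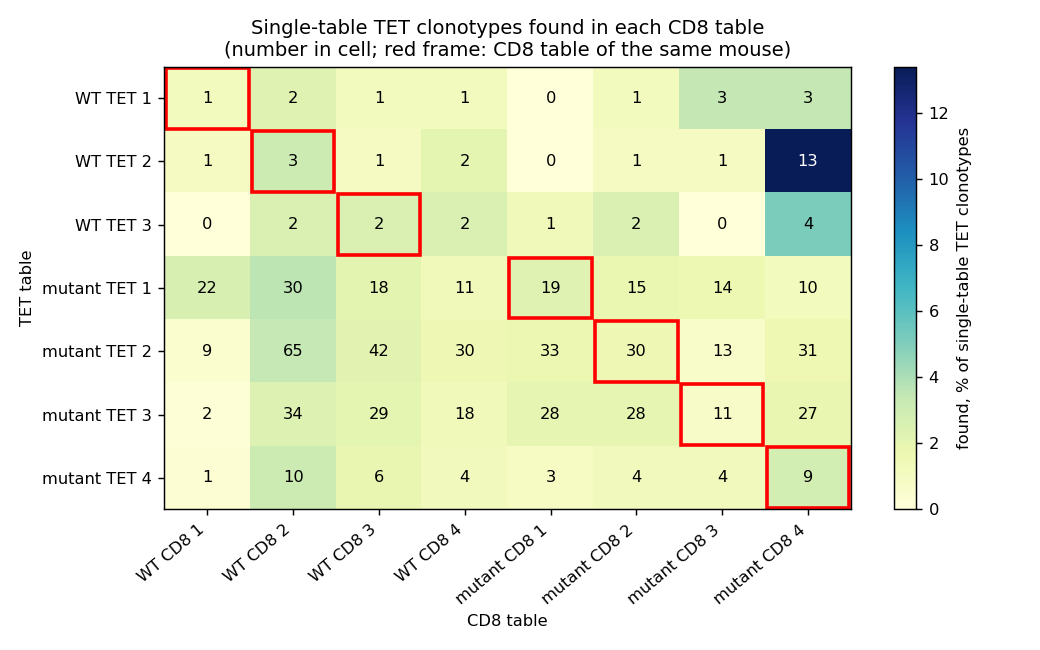
Number of single-library TET clonotypes of each TET library (rows) that were read in each CD8 library (columns); the colour gives them as percent of the row's single-library clonotypes, and red frames mark the 2 libraries of a mouse. The framed cells are not the highest of their rows, WT CD8 2 is the highest in each mutant row, and the darkest cell is WT TET 2 in mutant CD8 4 with 13 clonotypes.

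The CD8 libraries held unequal numbers of the clonotypes. WT CD8 2 held 146 of the 581, the most of all, and was the highest for each of the 4 mutant TET libraries, with 30, 65, 34 and 10 clonotypes. For the 3 WT TET libraries mutant CD8 4 was the highest, with 3, 13 and 4, tied for WT TET 1 with mutant CD8 3. Per 1000 of its clonotypes, 27.5 were CD8-found clonotypes in WT CD8 2, 18.7 in mutant CD8 1 and 17.6 in WT CD8 1, the 3 CD8 libraries with the fewest clonotypes. The other 5 held 4.72 to 14.2 per 1000. Without the WT CD8 2 library, which also takes WT mouse 2 out of the comparison, the own minus other difference was 0.271 points. Without WT CD8 1, and so without WT mouse 1, it was 0.0476 points.

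A pair of cells in this matrix stood out. Of the 97 single-library clonotypes of WT TET 2, 13 (13.4%, 95% exact interval 7.33 to 21.8%) were in mutant CD8 4, where its other CD8 libraries held 0 to 3. Of these 13, 10 had a TET count of 1, and their median count in mutant CD8 4 was 5. Mutant TET 1 and WT CD8 1 shared 22 clonotypes, with a median count of 2 in TET and 16 in CD8, above the median of 6 for all clonotypes of WT CD8 1. For comparison, the 65 clonotypes that mutant TET 2 shared with WT CD8 2 had a median count of 5 in TET and 3 in CD8. What set these counts was not tested.

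Counted by abundance instead of by number, the own library held more of mutant TET 4 than of any other mouse's TET library. Clonotypes in the own CD8 library held 0.422%, 1.40% and 2.43% of the single-library counts of WT TET 1 to 3 and 4.69%, 2.20%, 2.15% and 23.5% of those of mutant TET 1 to 4. The mean of the other CD8 libraries was 2.42%, 0.626% and 1.297% for WT TET 1 to 3 and 1.98%, 2.21%, 2.24% and 5.45% for mutant TET 1 to 4. The mean difference of 2.94 ± 6.81 points was positive in 4 of 7 mice and did not pass the test (exact sign-flip permutation p = 0.3125, adjusted 0.432). In mutant TET 4, 9 clonotypes were in the own CD8 library, and without the largest 2 the 23.5% became 5.35%. Without mutant mouse 4 the mean difference over the 6 other mice was 0.519 points, and without WT TET 2 and mutant TET 4 it was 0.350.

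Counts of a clonotype in CD8 were low, and lay mostly below those in TET as a share of the library. Over the 657 pairings the median CD8 count was 3 and the highest 58; 508 (77.3%) were at 5 or less and 195 (29.7%) at 1. The clonotype took a larger share of its TET library than of the CD8 library in 450 pairings (68.5%), in 58 of 75 own pairings (77.3%) and in 392 of 582 pairings with other mice (67.4%). Pairings with the own CD8 library had a median TET count of 9 and those with other mice of 4, with the same median CD8 count of 3. These are descriptions, since the choice of clonotypes used both counts. TET libraries held 97 to 2199 clonotypes and CD8 libraries 2040 to 9827, so an average clonotype mostly takes a larger share in TET. No base value for other clonotypes stands beside the 68.5%.

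At the ends of the range, 97 pairings had a TET count over 10 times the CD8 count and 20 a CD8 count over 10 times the TET count. Of the latter, 19 were with another mouse, 8 of them between mutant TET 1 and WT CD8 1. The highest CD8 counts among clonotypes also in the own CD8 library were 27, 20, 13, 13 and 11, with TET counts of 1, 12, 10, 2 and 21. Those in another mouse were 58, 51, 43, 42 and 42, with TET counts of 1, 3, 1, 71 and 1. The sequences below are first the highest own pairing and the 2 highest pairings with another mouse. The last is the only 1 of the 5 in another mouse that was also large in TET. All 4 used TRBV13, but the own pairing of WT TET 3 at a CD8 count of 13, which is not shown, used TRBV1.

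mutant TET 2, 27 in mutant CD8 2: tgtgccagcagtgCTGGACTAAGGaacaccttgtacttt
mutant TET 1, 58 in WT CD8 1: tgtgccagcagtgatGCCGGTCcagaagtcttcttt
mutant TET 1, 51 in WT CD8 1: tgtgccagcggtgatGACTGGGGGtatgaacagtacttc
WT TET 1, 42 in mutant CD8 4: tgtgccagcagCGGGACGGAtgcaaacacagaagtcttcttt

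The last had 71 counts in WT TET 1 (1.43% of the library) and 42 in mutant CD8 4, the only CD8 library it was read in. Within a TET library the TET count and the highest CD8 count of a clonotype had little relation. Spearman's rho was -0.191, 0.0766 and 0.0463 over 10, 19 and 12 clonotypes of WT TET 1 to 3, and -0.139, 0.101, 0.0782 and 0.227 over 125, 223, 157 and 35 clonotypes of mutant TET 1 to 4. The clonotypes of a library share its depth, so these values carry no test.

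**Figure D2:**
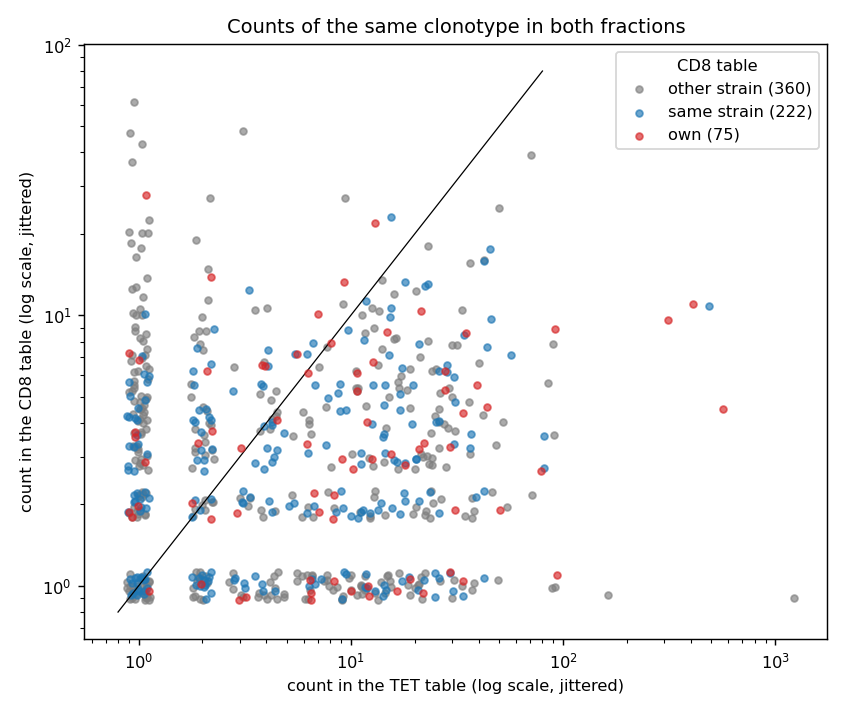
Count of each CD8-found clonotype in its TET library (x axis) and in a CD8 library (y axis), both on log scales with points jittered, for the 657 pairings; the line marks equal counts and colours mark the own mouse, other mice of the strain and the other strain. Points spread below the line up to a TET count of 1270, and the 20 pairings with a CD8 count over 10 times the TET count are 19 with the other strain and 1 own pairing.

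The share found in CD8 was highest among the clonotypes that were largest in TET, as a description of pooled clonotypes. Over all libraries 164 of 1600 clonotypes with a TET count of 1 were in CD8 (10.3%), 144 of 1286 with 2 to 5 (11.2%), 167 of 1302 with 6 to 20 (12.8%) and 106 of 576 with more than 20 (18.4%). In mutant libraries the pooled percentages were 9.75, 11.2, 12.8 and 19.5. In WT libraries they were 22.95, 10.7, 13.6 and 14.04, with 14 of 61 clonotypes at a TET count of 1, and exact intervals that overlapped each other. Of those 14, 11 came from WT TET 2 (11 of 36, 30.6%), 10 of them shared with mutant CD8 4. WT TET 1 had 0 of 9 and WT TET 3 had 3 of 16, which is 12% for both libraries together. The difference between strains in this pattern was not tested.

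**Figure D3:**
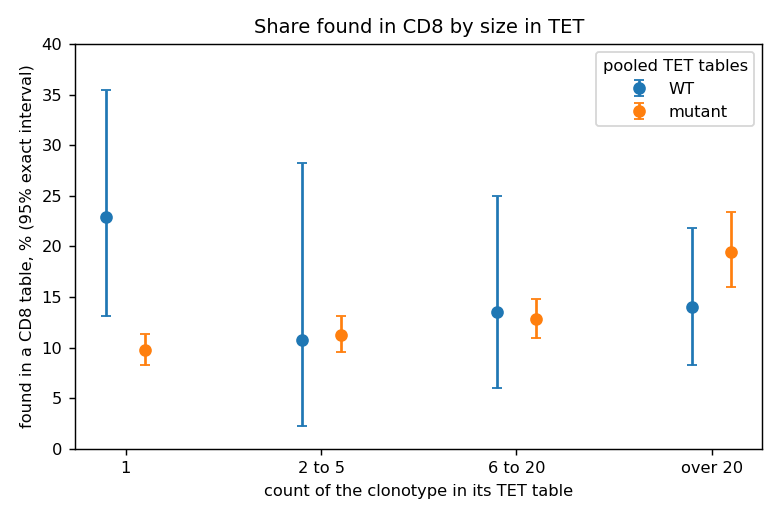
Percent of single-library TET clonotypes read in a CD8 library (y axis) by their count in the TET library (x axis), pooled over the 3 WT and the 4 mutant TET libraries; bars are 95% exact binomial intervals, which cover counting error only. The mutant points rise from 9.75% to 19.5%, and the WT intervals overlap over all 4 classes.

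The median TET count was 4 in CD8-found and 3 in TET-only clonotypes, with highest counts of 1270 and 868, and 28.2% and 34.3% had a count of 1. By library, the median was 54 in CD8-found against 24 in TET-only clonotypes of WT TET 1, 1 against 6.5 in WT TET 2 and 17 against 19.5 in WT TET 3. In mutant TET 1 to 4 it was 6 against 6, 5 against 3, 4 against 2 and 2 against 1. The mean of the log2 TET count was 2.68 ± 1.17 against 2.52 ± 1.07 over the 7 libraries, higher in 5, a difference of 0.15 ± 0.75 that did not pass the test (exact sign-flip permutation p = 0.547, adjusted 0.668). It was 0.30 without WT TET 2 and mutant TET 4. The difference turned to -0.47 under a filter on count ratios over 10. Clonotypes with a CD8 count over 10 times the TET count were left out of both groups. Pairings with a TET count over 10 times the CD8 count were not counted as found. This moves large TET clonotypes to the TET-only group by construction. CD8-found clonotypes held 10.7%, 1.41% and 8.00% of all counts in WT TET 1 to 3 and 9.97%, 8.92%, 7.66% and 4.20% in mutant TET 1 to 4.

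V family use asked whether clonotypes found in CD8 differ from those of the same TET libraries that were not. TRBV13 was more frequent and TRBV20 less frequent among CD8-found clonotypes. The rule asks for a match in CD8, where families differ in size, so this comparison is not independent of the rule. Among CD8 clonotypes in no TET library, TRBV13 made up 34.8% and TRBV20 1.77% (mean over the CD8 libraries of the same mice). Whether family size in CD8 set the difference was not tested. TRBV13 made up 50%, 63.2% and 50% of CD8-found against 51.9%, 59.0% and 48.5% of TET-only clonotypes in WT TET 1 to 3. In mutant TET 1 to 4 it made up 56.0%, 56.5%, 56.1% and 57.1% against 41.5%, 43.3%, 43.2% and 43.0%. The 4 mutant libraries each had a gap of over 12 points and the 3 WT libraries gaps of under 5 points, in WT TET 1 in the other direction.

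In edgeR's quasi-likelihood test of clonotypes per V family, with the TET library as a block, TRBV13 rose by 0.37 ± 0.089 (SE) on the log2 scale (adjusted p = 0.000529; 327 of 581 against 1818 of 4183 clonotypes). TRBV20 fell by 0.84 ± 0.305 on the log2 scale (edgeR adjusted p = 0.0419), with a mean of 1.79 ± 2.36% against 5.25 ± 2.13% and a lower value in 7 of 7 libraries, but on 20 CD8-found clonotypes. These were 2 of the 14 families tested (14.3%), and 7 of the 14 had an unadjusted p under 0.05. The exact test of the TRBV13 share over the 7 libraries, 55.6 ± 4.53% against 47.2 ± 6.39%, gave a gap of 8.36 ± 6.91 points, higher in 6 of 7, which missed the adjusted threshold (exact sign-flip permutation p = 0.0469, adjusted 0.344).

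The TRBV13 call did not hold in every setting. Under TMM scaling it was lost (0.22 on the log2 scale, edgeR adjusted p = 0.0819) as it was in DESeq2 (0.14, adjusted p = 0.834). It was kept when the TET library of each mouse was left out in turn, with the groups still set by all libraries. The difference of shares, 8.36 points, ran from 1.16 under the filter on count ratios over 10 to 12.2 with a CD8 count of at least 2 and 13.8 by amino acids (exact sign-flip permutation p = 0.0156, the smallest possible, adjusted 0.156). That filter moves large TET clonotypes to the TET-only group. The TRBV20 call was lost in DESeq2 (-0.52, adjusted p = 0.582). In edgeR it was lost with no filter on families (-0.84, adjusted p = 0.102), without single TET counts (-0.99, adjusted p = 0.0536) and without WT TET 2 and mutant TET 4 (-0.77, adjusted p = 0.0795). It was also lost when WT mouse 1 or 2 or mutant mouse 2, 3 or 4 was left out (-0.85 to -0.75, edgeR adjusted p 0.0512 to 0.144).

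The 12 other families did not pass the test as fitted. Lower log2 fold changes with adjusted p between 0.0603 and 0.0642 in edgeR were found for TRBV17 (-1.37), TRBV14 (-0.999), TRBV29 (-0.99), TRBV4 (-0.78) and TRBV31 (-0.73), on 4 to 18 CD8-found clonotypes each. With TMM factors these 5 and TRBV20 were called lower and no family higher, and with a CD8 count of at least 2 TRBV14, TRBV29, TRBV31, TRBV4 and TRBV20 were called lower and TRBV13 higher. TRBV4 was lower in 7 of 7 libraries, with a mean of 1.65% against 4.59%. TRBV1, the second family by number with 70 CD8-found clonotypes, had a log2 fold change of 0.17, and TRBV5 (49 clonotypes) and TRBV19 (34 clonotypes) had -0.10 and -0.31. TRBV2 (-0.11), TRBV3 (-0.99), TRBV16 (0.41) and TRBV30 (-1.22) rested on 13, 3, 4 and 1 clonotypes. TRBV15 had 4 and was too rare to be tested.

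Set against the CD8 repertoire of the same mice, CD8-found clonotypes used TRBV13 and TRBV1 more often and 7 other families less often. The reference was 44512 clonotypes of the 7 matching CD8 libraries that were in no TET library. TRBV13 made up 34.8 ± 1.07% of these against 55.6 ± 4.53% of CD8-found clonotypes, higher in 7 of 7 mice (log2 fold change 0.71 ± 0.13, edgeR adjusted p = 4.35e-07). TRBV1 rose by 0.98 ± 0.27 on the log2 scale (edgeR adjusted p = 0.000499), with 13.4 ± 7.94% against 5.997 ± 0.977%. Of 18 families tested 12 were called (66.7%), 5 higher and 7 lower. The difference of V use between TET and CD8 libraries as wholes was already known from these data, so these calls are no independent evidence.

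TRBV12 was read in 2883 of the reference clonotypes (6.48%) and in 0 of the 581, which allows up to 0.516%, so it was at least 12.5-fold lower. The 6 others that fell were TRBV16 (log2 fold change -3.55), TRBV3 (-3.14), TRBV17 (-2.63), TRBV15 (-2.36), TRBV14 (-1.88) and TRBV29 (-1.87), with edgeR adjusted p of 0.0025 or less. These 7 families were also called lower with TMM factors and in DESeq2. The same held when the libraries of each mouse with a TET library were left out in turn.

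The families that rose were less stable. With TMM factors, which shifted the median family by -0.67 on the log2 scale, TRBV13 had a log2 fold change of 0.04 and none of the 5 was called higher. DESeq2 gave TRBV13 0.30 (adjusted p = 0.389) and kept TRBV1 (0.83, adjusted p = 0.0256). TRBV20, TRBV31 and TRBV5 (log2 fold changes 1.07, 1.11 and 0.63, edgeR adjusted p 0.0229, 0.0383 and 0.0383) were higher in only 3, 4 and 4 of 7 mice. Their calls were lost with TMM, in DESeq2 and without several single mice: mutant mouse 1, 2 or 3 for TRBV20, mutant mouse 1 or 4 for TRBV31, and WT mouse 3 or mutant mouse 2, 3 or 4 for TRBV5. TRBV5 turned to -0.04 with TMM. As fitted, TRBV4, TRBV19, TRBV2, TRBV26, TRBV10 and TRBV30 were not called. With TMM factors TRBV4, TRBV19 and TRBV26 were called lower (edgeR adjusted p 0.000205, 0.0013 and 0.0239). DESeq2 called TRBV10 higher (adjusted p = 0.00424), although it had 0 CD8-found clonotypes.

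**Figure D4:**
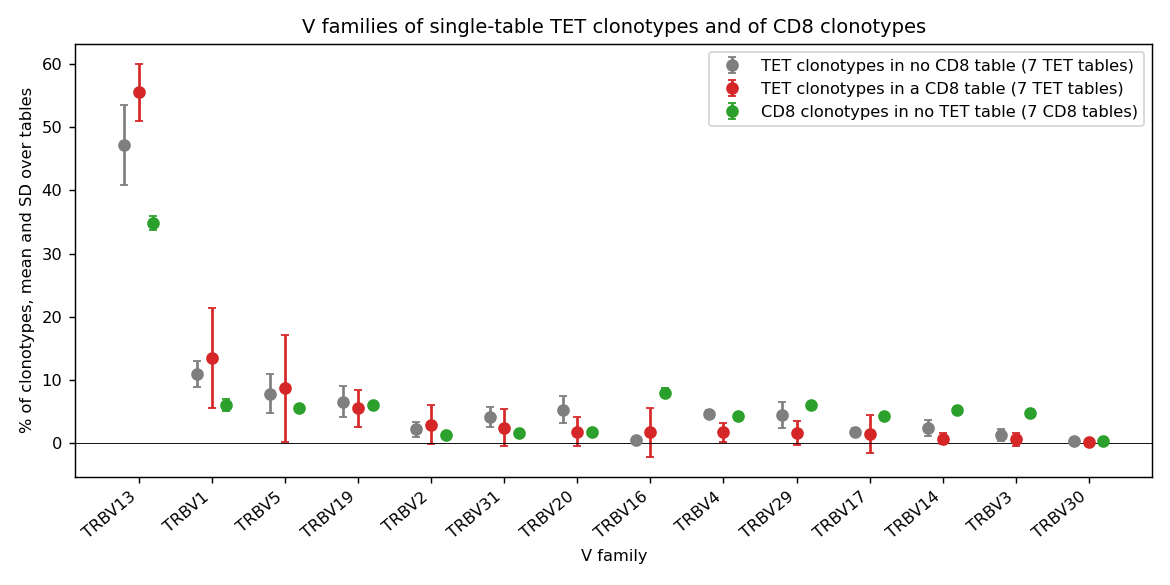
Percent of clonotypes in each V family (x axis) among TET-only clonotypes (grey), CD8-found clonotypes (red) and CD8 clonotypes in no TET library (green), as mean and SD over 7 libraries each. TRBV13 is at 47.2%, 55.6% and 34.8%, and TRBV20 at 5.25%, 1.79% and 1.77%.

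CDR3 length did not separate the groups beyond the spread between libraries. The mean length was 13.70, 13.95 and 13.33 residues for CD8-found against 13.58, 13.65 and 14 for TET-only clonotypes in WT TET 1 to 3. In mutant TET 1 to 4 it was 13.65, 13.59, 13.60 and 13.63 against 13.96, 13.92, 13.94 and 13.83. All 4 mutant libraries and 1 of the 3 WT libraries had the shorter mean in CD8-found clonotypes. The means were 13.63 ± 0.181 and 13.84 ± 0.161, a difference of -0.205 ± 0.318 residues (exact sign-flip permutation p = 0.141, adjusted 0.387). Lengths ran from 8 to 18 residues in CD8-found and from 8 to 20 in TET-only clonotypes. The largest gap at a single length was at 15 residues, with 15.8% of CD8-found and 22.2% of TET-only clonotypes.

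The joins are described without a test, since they were examined after the values were seen. CD8-found clonotypes had a mean of 3.21 ± 0.694 inserted bases, against 3.59 ± 0.145 in TET-only clonotypes, lower in 6 of 7 libraries. WT TET 1 went the other way, with 4.70 against 3.49 on 10 CD8-found clonotypes. A share of 17.0 ± 5.43% had no inserted base, against 11.6 ± 0.980%, and 36.8 ± 6.70% had no D segment named, against 26.4 ± 4.41% (higher in 6 of 7). CD8 clonotypes in no TET library had a mean of 3.52 ± 0.101 inserted bases and 13.90 ± 0.0237 residues over the 8 CD8 libraries, close to TET-only clonotypes.

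Values moved step by step with the number of CD8 libraries that held a clonotype. For 0, 1 and 2 or more CD8 libraries, over 4183, 516 and 65 pooled clonotypes, the mean of inserted bases was 3.63, 3.16 and 2.54. The mean length was 13.9, 13.7 and 13.2 residues, the TRBV13 share 43.5%, 55.2% and 64.6%, and the median TET count 3, 4 and 9. The 75 clonotypes in the own CD8 library had a mean of 2.72 inserted bases and 13.8 residues, 61.3% TRBV13 and a median TET count of 9. The 506 in other mice alone had 3.15 inserted bases, 13.6 residues, 55.5% TRBV13 and a median TET count of 4. The pooled values are dominated by mutant TET 1, 2 and 3.

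The protein sequence of a clonotype can be encoded in more than 1 way, and the rule does not itself use a second coding sequence in CD8. Such a sequence, with the same V family and CDR3 residues but other bases, was present in CD8 for 0%, 31.6% and 16.7% of CD8-found clonotypes of WT TET 1 to 3, against 7.79%, 6.41% and 3.03% of TET-only clonotypes. In mutant TET 1 to 4 it was present for 18.4%, 16.6%, 14.01% and 11.4%, against 6.28%, 7.40%, 6.67% and 6.69%. The CD8-found share was higher in 6 of 7 libraries, with WT TET 1 the exception. The means were 15.5 ± 9.39% and 6.33 ± 1.55%, which differ by 9.20 ± 9.96 points and missed the adjusted threshold (exact sign-flip permutation p = 0.0625, adjusted 0.344). A copying error in CD8 that kept the residues of a CD8-found clonotype would also count as another sequence. Such errors in CD8 were not removed, so the groups were not on equal terms. Within TET, 3.02 ± 3.77% and 1.72 ± 0.699% had the same residues in another TET library by another sequence.

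**Figure D5:**
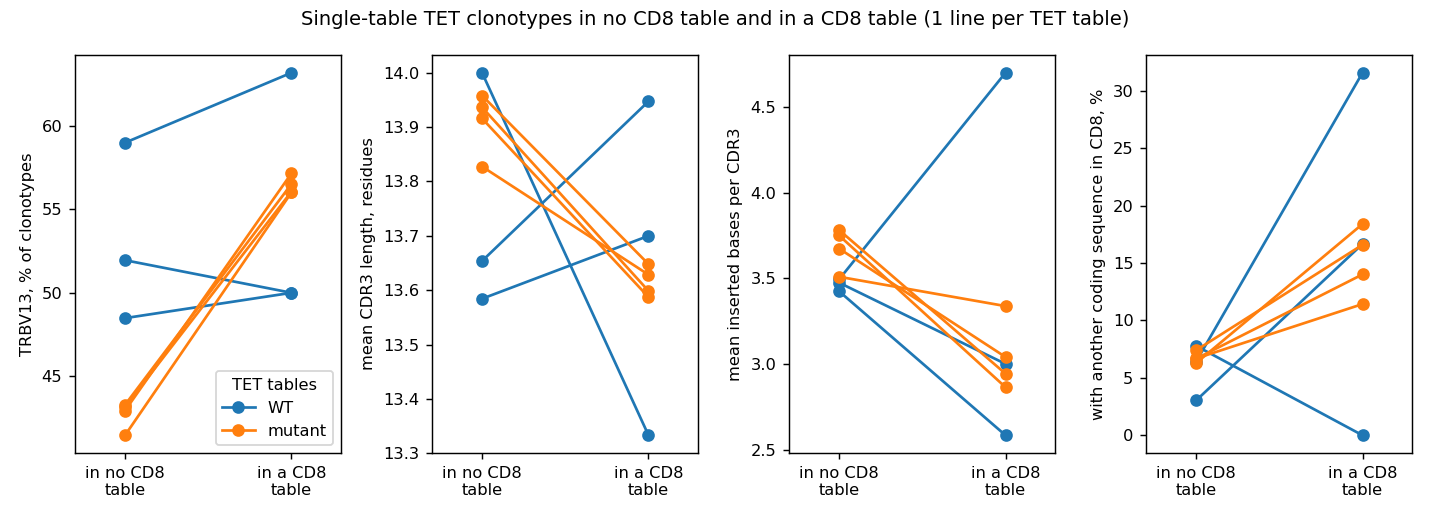
TRBV13 share, mean CDR3 length, mean number of inserted bases and share with another coding sequence in CD8 (y axes, which do not start at 0 in the first 3 panels) for TET-only and CD8-found clonotypes, with 1 line per TET library. The 4 mutant lines run the same way in each panel, and WT lines cross them in each.

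The J cluster and possible copying errors gave no difference past the test. TRBJ2 was used by 58.0 ± 6.64% of CD8-found and 61.9 ± 7.35% of TET-only clonotypes, a difference of -3.95 ± 8.92 points that was negative in 4 of 7 libraries (exact sign-flip permutation p = 0.3125, adjusted 0.432). It turned to 0.125 points without clonotypes of TET count 1. Clonotypes that were 1 base from a clonotype with at least 10 times the count in the same TET library were rare, at 0.0641 ± 0.169% of CD8-found and 0.409 ± 0.452% of TET-only clonotypes (exact sign-flip permutation p = 0.125, adjusted 0.387).

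The strains were compared over 3 WT and 4 mutant TET libraries, where the smallest possible exact p is 0.0286. CD8-found clonotypes were 12.1 ± 1.85% of single-library clonotypes in mutant and 15.5 ± 4.05% in WT mice (exact permutation p = 0.2, adjusted 0.432). They held 24.0 ± 17.1% of the single-library counts in mutant and 11.1 ± 6.09% in WT mice (exact permutation p = 0.314, adjusted 0.432), and 49.7% in mutant TET 4 against 14.7 to 16.2% in the other mutant libraries. Of these counts in mutant TET 4, 1270 were of 1 clonotype that had a CD8 count of 1, in WT CD8 2. Of all counts of mutant TET 4, CD8-found clonotypes held 4.20%. Without mutant mouse 4 the difference of 12.9 points was 4.33, and without WT TET 2 as well it was 1.303. With a CD8 count of at least 2 the difference was 5.69 points. The difference by clonotypes, -3.36 points, was -0.930 without WT TET 2 and mutant TET 4. The own minus other difference was 0.154 ± 0.948 points in mutant and 0.0624 ± 0.636 in WT mice (exact permutation p = 0.943), and its sign depended on the mouse left out. None of the 11 exact tests of this section passed after adjustment, and the TRBV13 share was the only 1 with an unadjusted p under 0.05.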

How the data were processed

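TCRβ amplicons were made from total RNA with template switching and molecular identifiers and sequenced on a MiSeq, per the labels' protocols. The authors deposited 1 table per library (15 libraries) with a count and a fraction for each CDR3, its V family, J cluster and length. Per the file headers the fraction is of a library total, of which the tables held 94.2% to 99.3%; shares were recomputed from the deposited counts. Which aligner, clonotype caller and genome build were used is not given in the sources used here, so no coordinates are printed and segments within a V family were not separated. After removal of 4 alpha chain entries with 6 counts, 59364 table entries remained.

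The clonotypes and lists were chosen with earlier results of these data known. Values per library were tested by exact permutation (two-sided), by flipping signs over 7 mice (128 patterns, smallest p 0.0156) or over 35 splits of strain, with Benjamini-Hochberg adjustment over 11 tests and a threshold of 0.05. Clonotypes per V family, each counted once, were compared with edgeR 4.0.16 (quasi-likelihood, TET library or mouse as a block, library size the number of clonotypes, families of at least 20 clonotypes). Its SE is the fold change divided by the normal deviate of its p-value. DESeq2 1.42.0, TMM factors, other filters and definitions, and leaving out each mouse were alternatives, and the tests were tested on simulated data. Leaving out a mouse took its values out of the comparison, but all libraries still set which clonotypes were single-library and CD8-found. WT mouse 4, which had a CD8 library only, was not left out in turn. Leaving out WT CD8 1 or WT CD8 2 was chosen after seeing the data. Named clonotypes were the largest CD8-found and TET-only clonotype of each TET library, the 5 in most CD8 libraries, and the 5 highest in the own and in another mouse's CD8 library; some of their sequences are printed. The pairing of fractions by number rests on the design text. Nothing in the labels says whether libraries were prepared in batches. P-values of the exact tests measure the spread between these libraries. Those of edgeR also draw on the number of clonotypes counted, which are not replicates of a mouse. For TRBV13 against TET-only clonotypes the adjusted p was 0.000529 in edgeR and 0.344 in the exact sign-flip permutation test.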

Additional observations from a re-analysis of the deposited data

Results flagged for a closer look

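In 3 of 12 measures tested over the 4 mutant TET libraries, a single library lay far from the other 3. Chance flags about 1 in 20 such groups, but the measures are not independent of each other, since some are weighted by the same counts. Mutant TET 1 had 14.9% of its single-library clonotypes in CD8, where the other mutant libraries had 10.97 to 11.6%. CD8-found clonotypes held 49.7% of the single-library counts of mutant TET 4, against 14.7 to 16.2% in the others. Of these counts, 1270 were of 1 clonotype that had a CD8 count of 1, in WT CD8 2. For mutant TET 4 the own minus other difference by counts was 18.03 percentage points, against -0.0925 to 2.71 in the other mutant libraries. The WT group of 3 was too small for this check.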

How the results depend on the processing

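Alternatives to the exact tests kept most directions, and no difference passed the adjusted threshold in any of them. The exceptions in direction were as follows. The own minus other difference was -0.179 points by amino acids and -0.176 without mutant TET 4 and WT TET 2. Its strain difference, 0.0914 points, became -0.163 with a CD8 count of at least 2, -0.345 without count ratios over 10, -0.0404 with CD8 libraries thinned to 17116 counts, -0.795 with 2040 clonotypes per CD8 library, -0.371 against the same strain alone, -0.204 without mutant TET 4 and WT TET 2 and -0.0889 without WT CD8 1, which also drops WT mouse 1. The log2 TET count difference became -0.47 without count ratios over 10, and the TRBJ2 difference 0.125 without single counts. The cause was not tested.

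Leaving out each mouse moved the own minus other difference from -0.0549 to 0.311 points, by counts from 0.519 to 3.94, and its strain difference from -1.21 to 0.597. The TRBV13 difference ran from 7.34 to 10.1 points, length from -0.288 to -0.128 residues, log2 TET count from 0.02 to 0.38, TRBJ2 from -5.95 to -1.46 points, another coding sequence from 6.54 to 12.0 and clonotypes 1 base from a larger one from -0.428 to -0.189. The strain difference ran from -5.36 to -1.31 points by clonotypes and from 4.33 to 15.98 by counts.

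V families called against TET-only clonotypes, 2 of 14, became 6 with TMM, 0 in DESeq2, 1 without a filter, 1 with the filterByExpr minimum, 1 without single counts, 6 with a CD8 count of at least 2, 1 without mutant TET 4 and WT TET 2, and 1 to 4 leaving out each mouse. Against CD8 clonotypes, 12 became 9 to 13 and 10 to 13. With no replicate block the calls were 2 and 13, and the TRBV13 share, paired by library in the main test, gave p = 0.021 unpaired (exact permutation, adjusted 0.0629). TMM factors shifted the median family by -0.14 and DESeq2 by 0.30 (log2) against TET-only clonotypes. At 19 or fewer CD8-found clonotypes in each WT library, single clonotypes move WT shares by several points.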

Other observations

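Among TRBV13 clonotypes the fourth CDR3 residue is set mostly by the V gene and differs between genes of the family. Glycine was at this position in 29.5 ± 8.86% of CD8-found and 26.6 ± 6.95% of TET-only TRBV13 clonotypes (SD over 7 TET libraries, higher in 4 and lower in 3). In CD8 clonotypes of no TET library it was at 37.6 ± 0.839%. Serine was at this position in 55.8 ± 9.92% of CD8-found and 57.3 ± 5.77% of TET-only clonotypes. These values were examined after the data were seen and were not tested.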
